A study of Mus musculus with 59 samples.

Results

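*Synpr* encodes a protein of the synaptic vesicle membrane and *Marcks* a protein of the plasma membrane. They are described here together with 4 related genes across 5 brain regions of SCA1 knock-in mice. Both were chosen by their cerebellar counts in an earlier reading of these data, where their transcripts were higher in mutant mice and changed little with substitutions in the AXH domain of ATXN1. *Syp*, the paralog of *Synpr*, *Marcksl1*, the paralog of *Marcks*, and *Gap43* and *Basp1*, a pair of growth-associated proteins, were taken as relatives. Earlier results of these data were known when these relatives were taken. These 6 genes are part of the 54232 mouse genes in the count files, and all 6 passed the filter on low counts in every region, with at least 1073 counted read pairs in any library. Because the cerebellar values of *Synpr* and *Marcks* chose these genes, they are given as a description with no test.

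The 59 libraries came from cortex, striatum, hippocampus, brainstem, and cerebellum of 12 C57BL/6 mice aged 10 weeks. The WT mice were WT-70 and WT-77, from a lower number series, and WT-220 and WT-221, from a higher one. *Atxn1* 154Q/2Q mice carry an expanded CAG repeat in 1 of their endogenous *Atxn1* alleles, so that the mutant protein is made wherever *Atxn1* is expressed, and are called 154Q here (mice 154Q-69 and 154Q-71 with 154Q-75 and 154Q-76). The third genotype, *Atxn1* 154Q[V591A;S602D]/2Q, has the same expanded allele edited to contain AXH substitutions that disrupt binding of ATXN1 to the repressor CIC, and is called 154Q-AXH here (mice 154Q-AXH-207 and 154Q-AXH-209 with 154Q-AXH-217 and 154Q-AXH-218). Each genotype had 4 libraries per region, apart from 3 for the 154Q-AXH brainstem, which lacks mouse 154Q-AXH-217. The comparisons ask whether a gene differed between mutant and WT mice, and whether the AXH substitutions altered that difference.

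Synaptoporin (*Synpr*) and synaptophysin (*Syp*) are tetraspan proteins of the synaptic vesicle membrane. Synaptophysin is present at nearly all presynaptic terminals, whereas synaptoporin is prominent in hippocampal mossy fibers and other selected pathways. MARCKS, MARCKSL1 (also called MacMARCKS), GAP-43, and BASP1 lie on the inner face of the plasma membrane, where they bind acidic phosphoinositides. MARCKS, MARCKSL1, and GAP-43 are substrates of protein kinase C, MARCKS and GAP-43 also bind calmodulin, and all 4 are linked to actin and to the growth of axons and dendrites. In GRCm38, *Synpr* (ENSMUSG00000056296) lies at chr14:13284780-13616340 on the plus strand and *Syp* (ENSMUSG00000031144) at chrX:7638471-7653256 on the plus strand. *Marcks* (ENSMUSG00000069662) lies at chr10:37133375-37138920 on the minus strand and *Marcksl1* (ENSMUSG00000047945) at chr4:129513581-129515985 on the plus strand. *Gap43* (ENSMUSG00000047261) lies at chr16:42248442-42340651 and *Basp1* (ENSMUSG00000045763) at chr15:25363277-25413764, both on the minus strand.

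Several libraries stand apart and touch these genes. Libraries held 64416717 to 106215143 counted read pairs in the cerebellum, 75374074 to 112343574 in the brainstem, 69468491 to 106942535 in the hippocampus, 34530406 to 46174761 in the cortex, and 28058359 to 54719126 in the striatum. The hippocampal library of 154Q-76 held brainstem markers at a summed 312.1 CPM (counts-per-million, here of TMM-scaled library sizes), against 1.3 to 4.7 CPM in the other hippocampal libraries, and the hippocampal library of 154Q-AXH-218 held dentate granule cell markers at 725.5 CPM, against 194.1 to 418.1 CPM. Among striatal libraries, WT-220 and 154Q-AXH-217 had the highest markers of striatal projection neurons, at 4482 and 2227 CPM against 385.5 to 1593 CPM in the rest. Cortical markers in those 2 libraries, at 576.7 and 383.5 CPM, were below the 1256 to 1813 CPM of the other 10 striatal libraries, whereas cortical libraries held 1615 to 2105 CPM. The striatal fits below that leave out those 2 libraries thus keep the 10 with high cortical markers. How much cortical tissue these 10 held was not tested, and this limit holds for all striatal values below. In the cortex, 154Q-76 and 154Q-AXH-207 have file names that disagree with the sample titles, and the titles were used, and the library of WT-221 disagreed in sex-linked transcripts with the other libraries of that mouse. All 154Q mice belong to the lower number series and all 154Q-AXH mice to the higher one, with 2 WT mice in each, so that a difference between series is separable from genotype only through the WT mice. In these bulk tissues, fewer cells of a type and less RNA per cell cannot be told apart.

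*Synpr* has 2 annotated starts in RefSeq (GRCm38.p6), and the windows from 250 bases before to 50 bases after each are shown because counts per gene do not tell which start was used. The window of *Marcksl1* is shown beside them, since both genes were lowered in the 154Q cortex. Capitals mark the half-site GTTGCC of RFX-family factors, on either strand, which 12.5% of 32851 such windows hold.
*Synpr*, upstream start, chr14:13284530-13284829, plus strand: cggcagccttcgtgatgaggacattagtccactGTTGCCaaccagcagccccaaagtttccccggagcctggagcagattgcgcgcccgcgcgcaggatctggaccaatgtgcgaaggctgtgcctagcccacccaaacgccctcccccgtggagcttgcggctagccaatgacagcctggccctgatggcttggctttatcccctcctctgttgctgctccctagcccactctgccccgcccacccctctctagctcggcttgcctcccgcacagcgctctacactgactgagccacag
*Synpr*, downstream start, chr14:13453708-13454007, plus strand: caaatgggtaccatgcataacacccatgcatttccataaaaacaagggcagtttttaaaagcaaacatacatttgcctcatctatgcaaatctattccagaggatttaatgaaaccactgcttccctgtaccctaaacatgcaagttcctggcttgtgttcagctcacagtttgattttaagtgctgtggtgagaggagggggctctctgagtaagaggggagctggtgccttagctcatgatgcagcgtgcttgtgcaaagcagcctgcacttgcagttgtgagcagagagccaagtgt
*Marcksl1*, chr4:129513331-129513630, plus strand: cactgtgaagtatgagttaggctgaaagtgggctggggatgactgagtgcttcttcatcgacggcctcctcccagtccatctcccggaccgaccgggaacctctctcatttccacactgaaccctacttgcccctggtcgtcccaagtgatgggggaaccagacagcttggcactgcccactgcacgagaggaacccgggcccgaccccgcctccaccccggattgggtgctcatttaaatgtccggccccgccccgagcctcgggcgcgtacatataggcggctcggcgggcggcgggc
The upstream *Synpr* window held 1 half-site, near its upstream end, and no other member window held any. It had a GC content of 63.7% with 16 CpG dinucleotides, whereas the downstream window had 46.0% GC with 1 CpG, and *Marcksl1* had 63.7% GC with 22 CpGs. The median over all windows was 52.7% GC with 7 CpGs. The CIC octamers TGAATGAA and TGAATGGA, searched on both strands because the AXH substitutions act on CIC binding, occurred in 2.47% of all windows and in none of the 5 windows that 4 of the members had in the table (*Synpr*, *Syp*, *Marcksl1*, and *Basp1*). These matches describe the letters of the windows only.

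In WT mice each member had its own regional profile. *Synpr* was highest in the striatum and hippocampus and lowest in the brainstem, with a 5.17-fold range of mean CPM, and *Basp1* was 40.9-fold higher in the cortex than in the cerebellum. *Syp*, *Marcksl1*, *Gap43*, and *Marcks* had narrower ranges, from 1.70-fold for *Marcks* to 3.03-fold for *Marcksl1*. All 6 differed between regions in the 20 WT libraries (edgeR F test over 5 regions, adjusted p between 8.2e-15 for *Basp1* and 1.9e-07 for *Marcks*), as did 91.6% of all genes tested.

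*Synpr* averaged 170 ± 23.7 CPM in the striatum, 165 ± 6.2 CPM in the hippocampus, 98.0 ± 9.2 CPM in the cortex, 76.2 ± 2.6 CPM in the cerebellum, and 32.9 ± 3.6 CPM in the brainstem (SD, n = 4 WT mice, as for the other WT means). The striatal and hippocampal libraries overlapped, and each of the other steps in this order was free of overlap. *Syp* fell from 849 ± 15.4 CPM in the cortex through 710 ± 152 CPM in the striatum, 623 ± 26.5 CPM in the hippocampus, and 489 ± 18.7 CPM in the brainstem to 418 ± 22.9 CPM in the cerebellum, and among neighbours in this order only striatum and hippocampus overlapped. The wide striatal spread came from WT-220, with 484.6 CPM against 767.4 to 809.7 CPM in the other WT mice, which also lay within the brainstem range of 472.8 to 515.2 CPM.

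*Marcks* averaged 194 ± 18.9 CPM in the hippocampus, 173 ± 7.9 CPM in the cerebellum, 129 ± 3.0 CPM in the brainstem, 120 ± 9.5 CPM in the cortex, and 114 ± 17.5 CPM in the striatum. Hippocampus and cerebellum overlapped, as did brainstem, cortex, and striatum with one another. *Marcksl1* was highest in the hippocampus (85.7 ± 6.0 CPM) and lowest in the cerebellum (28.2 ± 3.2 CPM), with cortex, striatum, and brainstem at 70.4 ± 8.7, 58.95 ± 5.8, and 42.4 ± 1.4 CPM. Its hippocampal libraries overlapped with the cortical ones and the cortical with the striatal ones. Thus the cerebellum was near the top of the *Marcks* order and at the bottom of the *Marcksl1* order.

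*Gap43* averaged 280 ± 40.4 CPM in the striatum, 244 ± 37.5 CPM in the cortex, 172 ± 11.04 CPM in the brainstem, 155 ± 4.6 CPM in the cerebellum, and 138 ± 18.1 CPM in the hippocampus, with overlap between striatum and cortex and between cerebellum and hippocampus. *Basp1* averaged 752 ± 69.8 CPM in the cortex, 670 ± 28.4 CPM in the hippocampus, and 585 ± 135 CPM in the striatum, which overlapped in this order, then 217.99 ± 14.7 CPM in the brainstem and 18.4 ± 5.6 CPM in the cerebellum. Per kb of exon, the scale on which genes can be compared, *Basp1* led the members in the WT cortex at 374 CPM per kb, followed by *Syp* at 163 and *Gap43* at 160 CPM per kb, and *Synpr* was last at 10.4 CPM per kb. In the WT cerebellum *Gap43* led at 101 CPM per kb, with *Synpr* at 8.07 and *Basp1* at 9.15 CPM per kb. Scaling all 20 WT libraries together gave the same order of regions for each of the 6 genes.

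**Figure D1:**
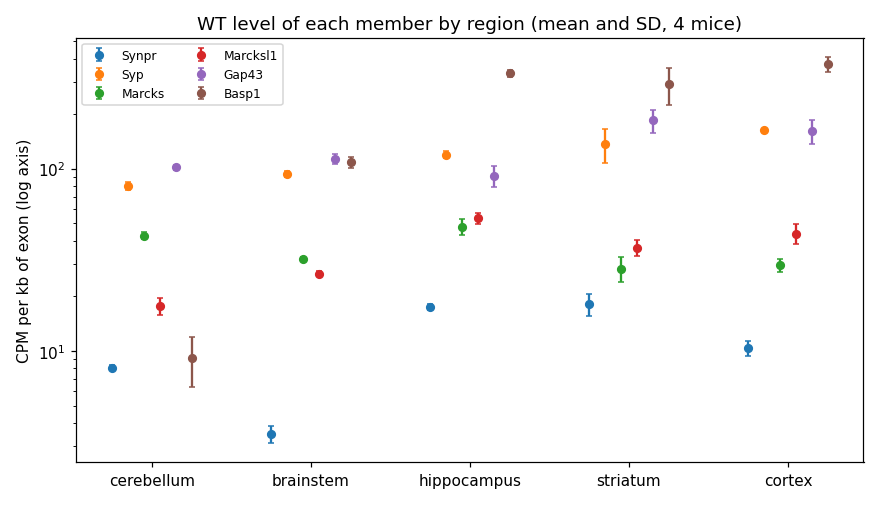
Mean level of each member in WT mice in CPM per kb of exon on a log axis, by region, with error bars for the SD over 4 mice. *Basp1* dropped to 9.15 CPM per kb in the cerebellum from 374 CPM per kb in the cortex, whereas *Marcks* stayed between 28.2 and 48.0 CPM per kb in the 5 regions.

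In the cerebellum, *Synpr* read 73.6, 74.9, 76.6, and 79.6 CPM in WT mice. The 154Q libraries held 141.6, 135.4, 147.5, and 135.8 CPM, and the 154Q-AXH libraries 135.6, 131.7, 124.0, and 135.9 CPM (mice in ascending number here and below). Both mutant groups lay wholly above WT and overlapped each other. Differences are given here and below as log2 fold changes of TMM-scaled counts in an edgeR quasi-likelihood fit, with their SE, and a gene is said to be called, or to pass, at a Benjamini-Hochberg adjusted p below 0.05 over all genes of the region. For *Synpr* the fitted differences, which chose the gene, were 0.88 ± 0.04 (SE) for 154Q and 0.79 ± 0.04 for 154Q-AXH against WT, or 1.84-fold and 1.73-fold, and 154Q-AXH against 154Q was -0.09 ± 0.04.

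*Marcks*, chosen in the same way, read 182.5, 176.0, 164.2, and 169.8 CPM in the WT cerebellum. It read 291.6, 284.4, 279.5, and 304.3 CPM in 154Q mice and 282.8, 283.2, 298.1, and 278.3 CPM in 154Q-AXH mice. The mutant groups again lay above WT without overlap, at log2 differences of 0.74 ± 0.04 and 0.72 ± 0.04, with -0.02 ± 0.04 for 154Q-AXH against 154Q. With number series as a covariate, 154Q-AXH against 154Q was -0.16 for *Synpr* and 0.08 for *Marcks*. Background rates of calling in the cerebellum were 5.22% of genes for 154Q against WT, 2.21% for 154Q-AXH against WT, and 0.0335% for 154Q-AXH against 154Q, and nothing is read from them for the comparison that chose the genes. Purkinje cell markers summed to 7775 to 8693 CPM in WT, 6166 to 6754 CPM in 154Q, and 6712 to 7212 CPM in 154Q-AXH cerebellum, whereas unipolar brush and Golgi cell markers, led by *Calb2*, summed to 509.7 to 525.6 CPM in WT, 630.6 to 710.6 CPM in 154Q, and 637.1 to 693.8 CPM in 154Q-AXH cerebellum. The markers of that second list did not move together: of its 5 genes *Calb2* was raised (0.51 and 0.48) and *Eomes* lowered (-1.36 and -1.43) in the 154Q and 154Q-AXH cerebellum, with list medians of 0.03 and 0.04. The part of either cell type in these differences was not tested.

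Among the 4 relatives, *Gap43* and *Basp1* were raised in the 154Q cerebellum, only *Gap43* passed in 154Q-AXH mice, and *Syp* and *Marcksl1* passed in neither. *Gap43*, which encodes the growth cone protein GAP-43, read 156.4, 154.0, 159.3, and 148.5 CPM in WT cerebellum, 184.3, 177.1, 179.8, and 190.2 CPM in 154Q, and 177.7, 177.4, 191.3, and 178.3 CPM in 154Q-AXH cerebellum. Neither mutant group overlapped WT. The increase was 18.3% in 154Q mice (log2 0.24 ± 0.04, adjusted p = 0.0015) and 17.2% in 154Q-AXH mice (0.23 ± 0.04, adjusted p = 0.0064), with WT mice of the same number series alone giving 0.23 in both (adjusted p = 0.039 and 0.0070).

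*Basp1*, whose protein binds the membrane through an N-terminal myristoyl group, had the lowest CPM of the members in the WT cerebellum. Its levels were 24.7, 21.4, 12.7, and 14.7 CPM in WT, 27.3, 46.1, 39.1, and 26.1 CPM in 154Q, and 22.8, 23.9, 26.7, and 23.5 CPM in 154Q-AXH cerebellum. The 154Q group lay above WT, with mice 154Q-71 and 154Q-75 highest, and the WT mice split by number series. The 154Q difference was 0.92 ± 0.20 (adjusted p = 0.015) and the 154Q-AXH difference 0.40 ± 0.20 (adjusted p = 0.37). *Nrgn*, a calmodulin-binding protein of forebrain neurons, read 32.6 and 29.2 CPM in the cerebellar libraries of 154Q-71 and 154Q-75, against 2.77 to 8.79 CPM in the other 10. Without those 2 libraries the 154Q difference of *Basp1* was 0.54 ± 0.19 (adjusted p = 0.20), whereas the *Synpr*, *Marcks*, and *Gap43* differences were 0.87, 0.79, and 0.28. Against WT mice of the same number series, *Basp1* differed by 0.59 ± 0.21 in 154Q mice (adjusted p = 0.26) and by 0.82 ± 0.08 in 154Q-AXH mice (adjusted p = 1.5e-04).

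*Syp* showed smaller cerebellar differences of 0.16 ± 0.05 in 154Q (adjusted p = 0.078) and 0.11 ± 0.05 in 154Q-AXH mice (adjusted p = 0.29), with overlapping groups of 401.2 to 450.3 CPM in WT, 440.5 to 499.5 CPM in 154Q, and 435.0 to 475.1 CPM in 154Q-AXH libraries. *Marcksl1* ranged from 24.8 to 31.2 CPM in WT, 24.9 to 30.0 CPM in 154Q, and 24.7 to 27.5 CPM in 154Q-AXH cerebellum, with differences of -0.03 ± 0.08 and -0.13 ± 0.08 (adjusted p = 0.89 and 0.46). Of these 4 differences, DESeq2 called that of *Syp* in 154Q mice (adjusted p = 0.035).

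**Figure D2:**
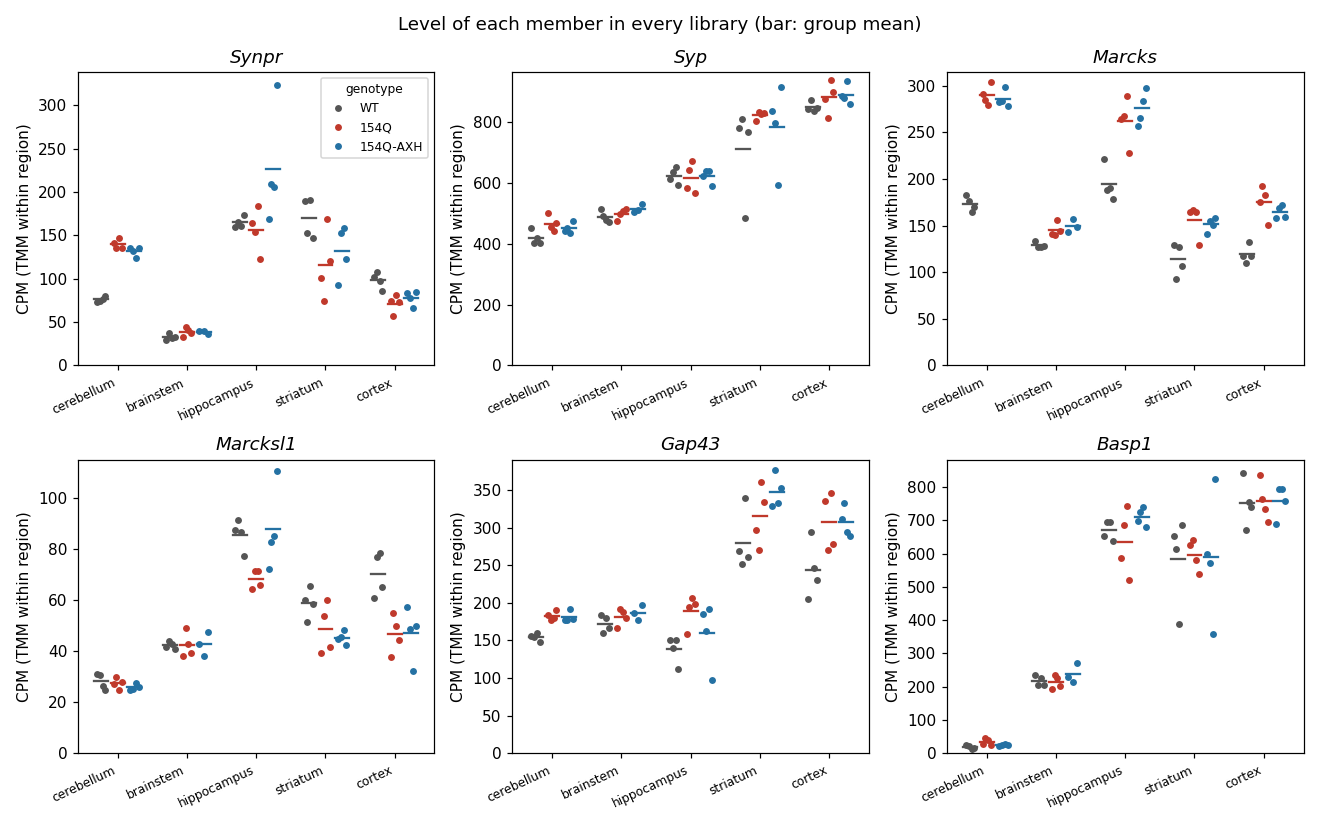
CPM of each member in every library, scaled within a region, with genotypes in colors and a bar at each group mean. The *Marcks* group mean is higher in both mutant groups than in WT in all 5 regions, *Synpr* is higher in the mutant cerebellum (124.0 to 147.5 CPM against 73.6 to 79.6 CPM) and lower in the mutant cortex, and *Syp* groups overlap in every region. The cerebellar values of *Synpr* and *Marcks* chose these genes and are a description only.

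Outside the cerebellum, *Marcks* was the member called most often. It passed the test in 154Q mice in the hippocampus, striatum, and cortex, and in 154Q-AXH mice in the hippocampus and cortex. Its point estimates were above 0 in each region outside the cerebellum for both genotypes. In the cortex, levels of 117.9, 110.2, 132.9, and 117.4 CPM in WT compared with 175.4, 192.1, 182.8, and 150.4 CPM in 154Q and 158.4, 168.6, 172.1, and 159.4 CPM in 154Q-AXH mice. Both mutant groups lay above WT. The differences were 0.55 ± 0.07 (46.4% higher, adjusted p = 1.9e-04) and 0.46 ± 0.07 (37.6% higher, adjusted p = 0.0010), and against WT mice of the same number series they were 0.62 ± 0.10 (adjusted p = 0.016) and 0.40 ± 0.06 (adjusted p = 0.0048). Of all genes tested in the cortex, 11.1% were called in 154Q and 7.15% in 154Q-AXH mice against WT.

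In the hippocampus *Marcks* read 221.6, 187.9, 189.8, and 178.1 CPM in WT, 264.8, 267.8, 289.2, and 228.2 CPM in 154Q, and 256.6, 265.4, 283.8, and 297.8 CPM in 154Q-AXH mice. No mutant library fell within the WT range, and the lowest 154Q value was that of 154Q-76, the library with brainstem markers. The differences were 0.43 ± 0.08 (adjusted p = 0.012) and 0.51 ± 0.09 (adjusted p = 0.014), and without the libraries of 154Q-76 and 154Q-AXH-218 they were 0.49 ± 0.07 (adjusted p = 0.0019) and 0.46 ± 0.07 (adjusted p = 0.0051). Compared only with WT mice of the same number series, the 154Q difference of 0.36 ± 0.12 missed the threshold (adjusted p = 0.26) and the 154Q-AXH difference of 0.59 ± 0.07 passed (adjusted p = 0.019). Leaving out WT-221 took the 154Q-AXH call to an adjusted p of 0.0505. Called genes made up 5.91% and 1.3% of those tested in the hippocampus.

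In the striatum *Marcks* read 129.6, 92.9, 127.3, and 107.0 CPM in WT, 164.6, 167.0, 164.7, and 129.0 CPM in 154Q, and 141.1, 155.0, 150.3, and 158.6 CPM in 154Q-AXH mice. In this region 3 of the 154Q libraries and all 4 154Q-AXH libraries lay above WT, and 154Q-76 fell just inside the WT range. The 154Q difference was 0.45 ± 0.11 (adjusted p = 0.033) and the 154Q-AXH difference 0.40 ± 0.11 (adjusted p = 0.11), against backgrounds of 5.69% and 1.35% of genes called. This striatal 154Q call was lost when any of 6 single libraries was left out (WT-77, WT-221, 154Q-69, 154Q-71, 154Q-75, or 154Q-AXH-209, adjusted p between 0.053 and 0.096), and without the striatal libraries of WT-220 and 154Q-AXH-217 the differences were 0.52 ± 0.11 (adjusted p = 0.010) and 0.47 ± 0.12 (adjusted p = 0.042).

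In the brainstem *Marcks* read 133.1, 127.2, 126.6, and 128.3 CPM in WT, 141.4, 140.1, 155.9, and 144.3 CPM in 154Q, and 143.4, 156.7, and 148.9 CPM in 154Q-AXH mice. All 7 mutant libraries were above all 4 WT libraries by a small margin. The differences of 0.18 ± 0.04 and 0.22 ± 0.04 missed the threshold in edgeR (adjusted p = 0.11 and 0.22) and passed in DESeq2 (adjusted p = 0.013 and 0.0061). In this region 0.538% of genes were called in 154Q and 0.0138% in 154Q-AXH mice, and no member was among them.

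**Figure D3:**
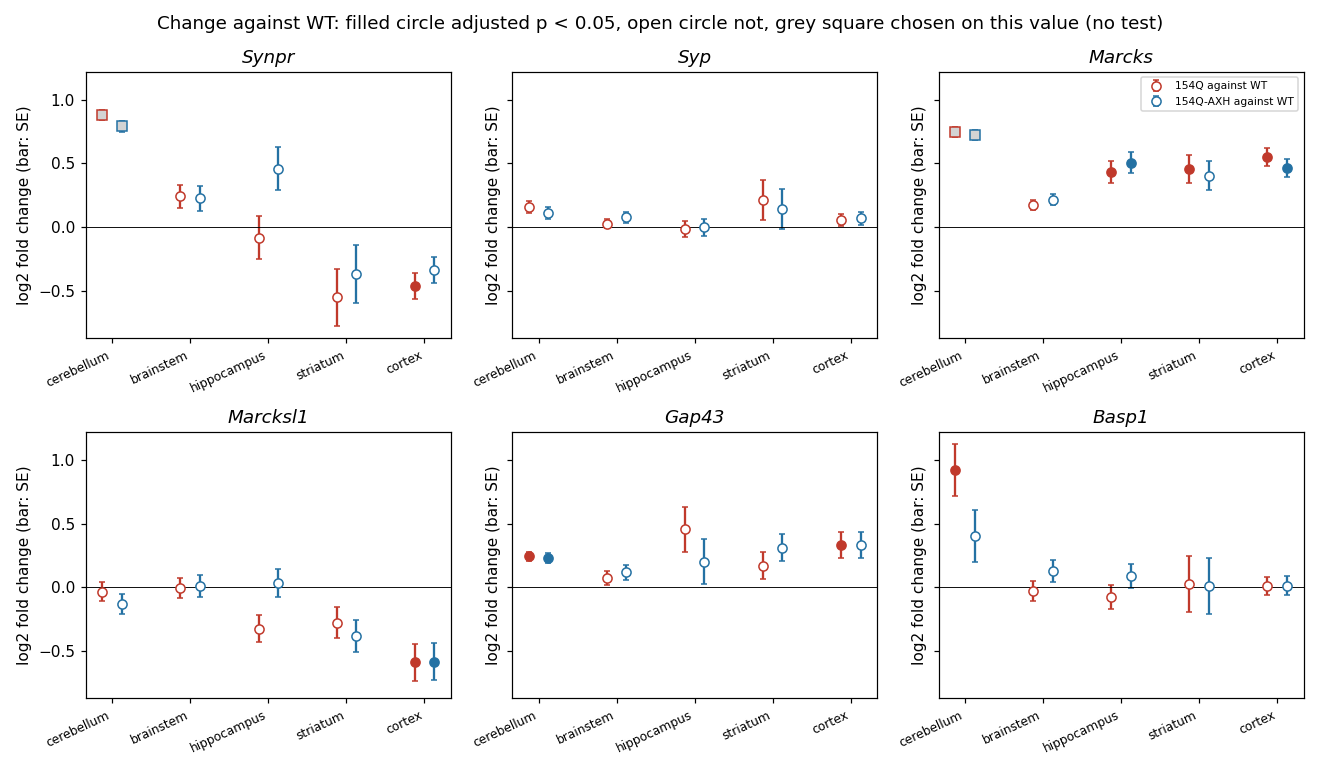
Log2 fold change of each member against WT by region, with SE bars, for 154Q and 154Q-AXH mice. Filled circles passed an adjusted p of 0.05, open circles did not, and grey squares mark the cerebellar values that chose *Synpr* and *Marcks*. Outside the cerebellum *Marcks* is above 0 in each region. *Synpr* spans 0.88 in the cerebellum to -0.55 in the striatum for 154Q mice, and *Marcksl1* reaches -0.59 in the cortex.

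In the cortex *Synpr* lay in the direction opposite to the cerebellum. It read 101.8, 107.3, 97.2, and 85.7 CPM in WT, 73.8, 56.7, 80.8, and 73.0 CPM in 154Q, and 83.1, 77.9, 65.7, and 84.4 CPM in 154Q-AXH cortex, with both mutant groups below WT. The decrease passed the test in 154Q mice (-0.46 ± 0.10, a change of -27.5%, adjusted p = 0.0085) and not in 154Q-AXH mice (-0.33 ± 0.10, adjusted p = 0.061). With WT-221 left out, the 154Q-AXH difference was -0.39 ± 0.10 (adjusted p = 0.046), and it was also called without 154Q-71 (adjusted p = 0.020), without 154Q-75 (adjusted p = 0.047), and, with all libraries, by DESeq2 (adjusted p = 0.020), without the filter on low counts (0.033), and with only the 2 genotypes compared (0.028). With the cortical libraries of 154Q-76 and 154Q-AXH-207 exchanged, as their file names have them, it was -0.38 ± 0.11 and was called (adjusted p = 0.042), the 154Q difference was -0.41 ± 0.11 (adjusted p = 0.018), and no other member call changed. Within number series the cortical differences were -0.56 ± 0.12 (adjusted p = 0.051) and -0.23 ± 0.09 (adjusted p = 0.19). With number series as a covariate the 154Q-AXH difference was -0.23 ± 0.12 (adjusted p = 0.39). The 154Q-AXH difference was called in 7 of 22 alternatives, among them 3 of the 12 fits with 1 library left out. The 154Q difference was called in 21 of these 22.

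Striatal *Synpr* showed more spread, with 190.1, 152.2, 190.8, and 147.1 CPM in WT, 100.5, 74.7, 169.3, and 120.3 CPM in 154Q, and 92.6, 153.1, 158.8, and 122.7 CPM in 154Q-AXH mice. Groups overlapped, and the differences of -0.55 ± 0.22 (adjusted p = 0.16) and -0.37 ± 0.22 (adjusted p = 0.56) missed the threshold. Brainstem *Synpr* ranged from 29.2 to 37.7 CPM in WT, 32.8 to 44.4 CPM in 154Q, and 36.2 to 39.7 CPM in 154Q-AXH mice, with differences of 0.24 ± 0.09 and 0.23 ± 0.10 (adjusted p = 0.35 and 0.73). No call was made for *Synpr* in either region.

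In the hippocampus *Synpr* read 160.0, 165.9, 160.7, and 173.5 CPM in WT, 164.4, 153.3, 183.4, and 122.5 CPM in 154Q, and 168.3, 208.9, 206.0, and 323.7 CPM in 154Q-AXH mice. The highest value belonged to 154Q-AXH-218, the library with the highest dentate granule cell markers, and the lowest to 154Q-76, the library with brainstem markers and the lowest dentate markers. Differences against WT were -0.08 ± 0.17 and 0.46 ± 0.17 (adjusted p = 0.83 and 0.22), and without these 2 libraries 0.01 ± 0.08 and 0.23 ± 0.08 (adjusted p = 0.97 and 0.15). The part of dentate tissue in these values was not tested. *Plk5*, 1 of the 6 dentate markers, was itself lowered in 8 of the 10 comparisons of a mutant genotype with WT, so the marker sum is not free of genotype.

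**Figure D4:**
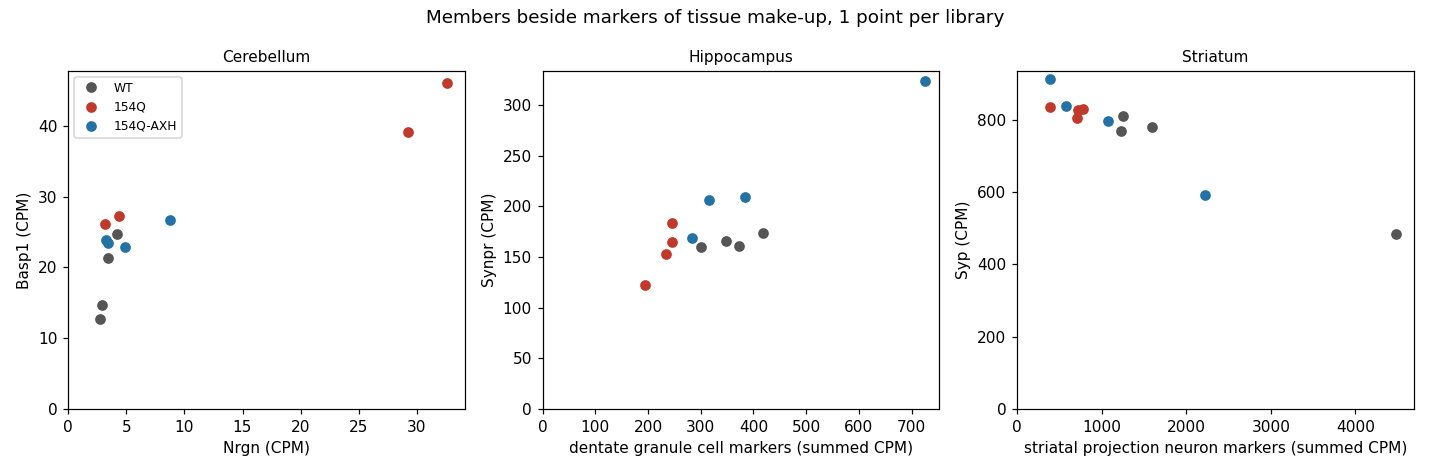
Members plotted against marker levels, 1 point per library, with all axes in CPM from 0: *Basp1* against *Nrgn* in the cerebellum, *Synpr* against dentate granule cell markers in the hippocampus, and *Syp* against striatal projection neuron markers in the striatum. The 2 cerebellar libraries with *Nrgn* at 29.2 and 32.6 CPM hold the highest *Basp1*, the hippocampal library at 725.5 CPM of dentate markers holds the highest *Synpr*, and the 2 striatal libraries richest in projection neuron markers hold the lowest *Syp*.

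*Marcksl1*, the paralog of *Marcks*, was lowered in the cortex of both mutant genotypes. It read 60.9, 76.96, 78.7, and 65.2 CPM in WT, 37.9, 55.0, 50.1, and 44.5 CPM in 154Q, and 57.3, 48.8, 32.3, and 49.8 CPM in 154Q-AXH cortex, and both mutant groups lay below WT. The differences were -0.59 ± 0.15 (adjusted p = 0.017) and -0.58 ± 0.15 (adjusted p = 0.024). Within number series they were -0.56 ± 0.14 and -0.61 ± 0.17 (adjusted p = 0.093 and 0.062). Leaving out WT-220 or 154Q-69 ended the 154Q call (adjusted p = 0.059 and 0.056), and leaving out WT-77, WT-220, or 154Q-AXH-209 ended the 154Q-AXH call (adjusted p = 0.062, 0.073, and 0.053), with differences that stayed between -0.50 and -0.60 in these fits.

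Hippocampal *Marcksl1* read 87.5, 91.3, 86.6, and 77.2 CPM in WT, 64.5, 71.7, 71.6, and 66.1 CPM in 154Q, and 72.1, 82.9, 85.2, and 110.9 CPM in 154Q-AXH mice. The 154Q group lay below both other groups, and 154Q-AXH-218 was again highest. The 154Q difference of -0.32 ± 0.11 missed the threshold (adjusted p = 0.10) and passed in DESeq2 (adjusted p = 0.045), without the libraries of 154Q-76 and 154Q-AXH-218 (-0.31 ± 0.07, adjusted p = 0.022), and without 154Q-AXH-218 alone (adjusted p = 0.018), while 154Q-AXH differed from WT by 0.03 ± 0.11 (adjusted p = 0.92). Of 21 alternatives, 4 called this 154Q difference. Striatal differences were -0.28 ± 0.12 (adjusted p = 0.20) and -0.38 ± 0.12 (adjusted p = 0.19), and brainstem differences were -0.0035 ± 0.08 and 0.01 ± 0.09 (adjusted p = 0.995 and 0.993).

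The log2 ratio of *Marcks* to *Marcksl1* within a library cancels the scaling of that library. It was 0.77 ± 0.19 in WT, 1.91 ± 0.21 in 154Q, and 1.84 ± 0.41 in 154Q-AXH cortex (SD, n = 4 each). Hippocampal ratios were 1.18 ± 0.13, 1.94 ± 0.11, and 1.67 ± 0.17 in the same order. Striatal ratios were 0.95 ± 0.12, 1.70 ± 0.26, and 1.74 ± 0.12. In each of these regions both mutant groups lay wholly above WT, with a two-sided exact permutation p of 0.0286, the smallest that 4 libraries against 4 can give, and 0.0571 after adjustment over 16 tests. Brainstem ratios were 1.60 ± 0.07 in WT, 1.79 ± 0.18 in 154Q, and 1.81 ± 0.21 in 154Q-AXH mice (n = 3), with overlap (exact adjusted p = 0.19 and 0.17). In the cerebellum, given as a description, the ratio was 2.62 ± 0.12 in WT, 3.40 ± 0.10 in 154Q, and 3.47 ± 0.05 in 154Q-AXH mice.

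For the pair *Synpr* and *Syp* the direction differed by region, a difference that was not tested. The ratio was -3.12 ± 0.13 in WT, -3.64 ± 0.14 in 154Q, and -3.52 ± 0.21 in 154Q-AXH cortex, both mutant groups below WT without overlap (exact permutation p = 0.0286, adjusted 0.0571). Striatal ratios were -2.04 ± 0.50, -2.89 ± 0.50, and -2.59 ± 0.57, and hippocampal ratios -1.92 ± 0.10, -1.99 ± 0.18, and -1.50 ± 0.44, with overlap in all 4 comparisons (exact adjusted p between 0.10 and 0.51). In the cerebellum, where *Synpr* was chosen, it stood at -2.46 ± 0.12 in WT, -1.73 ± 0.11 in 154Q, and -1.77 ± 0.05 in 154Q-AXH mice. None of the 16 ratio tests passed an adjusted p of 0.05, and 8 had the smallest p that 4 libraries against 4 allow.

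**Figure D5:**
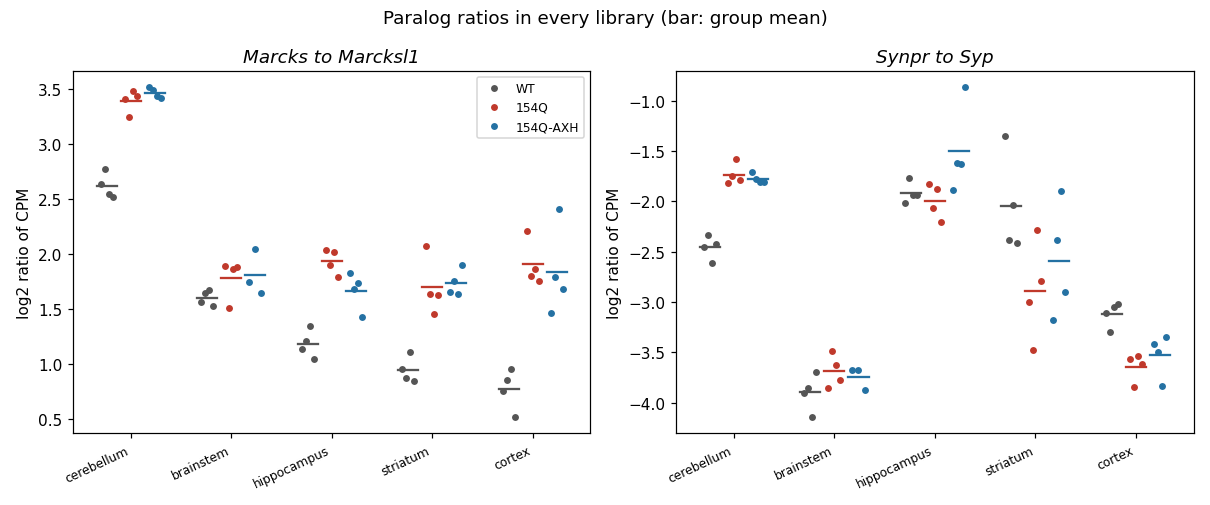
Log2 ratio of CPM of *Marcks* to *Marcksl1* and of *Synpr* to *Syp* in every library by region and genotype, with bars at group means. The *Marcks* to *Marcksl1* ratio is higher in both mutant groups in the hippocampus, striatum, and cortex, by between 0.49 and 1.14 on the log2 scale, whereas *Synpr* to *Syp* is higher in the mutant cerebellum and lower in the mutant cortex.

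*Gap43* was also raised in the 154Q cortex. It read 205.2, 294.2, 246.2, and 230.6 CPM in WT, 335.6, 270.5, 345.5, and 278.1 CPM in 154Q, and 311.9, 332.6, 294.7, and 289.2 CPM in 154Q-AXH mice, where WT-77 overlapped both mutant groups. The differences were the same size, 0.33 ± 0.10 in each, and the adjusted p of 0.044 in 154Q mice and 0.060 in 154Q-AXH mice lay on either side of the threshold. The 154Q call was lost when any of 9 single libraries was left out (all but WT-77, 154Q-71, and 154Q-76), with differences between 0.26 and 0.34 in those fits, and against WT mice of the same number series (0.30 ± 0.15, adjusted p = 0.44). The 154Q-AXH difference passed against WT mice of the same number series (0.37 ± 0.06, adjusted p = 0.0070), in DESeq2 (adjusted p = 0.015), and without WT-77 (0.43 ± 0.09, adjusted p = 0.0094). It was called in 7 of 22 alternatives, and not with number series as a covariate (0.37 ± 0.13, adjusted p = 0.17).

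Hippocampal *Gap43* read 150.5, 140.0, 150.6, and 112.3 CPM in WT, 159.1, 194.6, 205.9, and 198.5 CPM in 154Q, and 185.1, 163.0, 191.4, and 97.3 CPM in 154Q-AXH mice. Every 154Q library was above WT, and the lowest library of all was 154Q-AXH-218. Differences were 0.45 ± 0.18 (adjusted p = 0.16) and 0.20 ± 0.18 (adjusted p = 0.64), and without 154Q-76 and 154Q-AXH-218 they were 0.42 ± 0.11 (adjusted p = 0.033) and 0.38 ± 0.11 (adjusted p = 0.086). The 154Q call was also made without 154Q-AXH-218 alone (adjusted p = 0.026), and in all 2 of 21 alternatives made it. In the striatum *Gap43* differed by 0.17 ± 0.11 and 0.31 ± 0.11 (adjusted p = 0.36 and 0.23), and without WT-220 and 154Q-AXH-217 by 0.29 ± 0.08 (adjusted p = 0.042) and 0.45 ± 0.09 (adjusted p = 0.013). Brainstem *Gap43* differed by 0.07 ± 0.06 and 0.12 ± 0.06 (adjusted p = 0.69 and 0.76). Point estimates for *Gap43* were thus above 0 in all 5 regions for both genotypes, with calls only in the cerebellum and cortex in the fits of all libraries.

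*Syp* and *Basp1* were not called outside the cerebellum in either mutant genotype. Cortical *Syp* ranged from 836.5 to 871.3 CPM in WT, 814.9 to 938.2 CPM in 154Q, and 859.1 to 935.2 CPM in 154Q-AXH mice, with differences of 0.06 ± 0.05 and 0.07 ± 0.05 (adjusted p = 0.53 and 0.48). Across brainstem, hippocampus, and striatum, *Syp* differences lay between -0.02 and 0.21 in 154Q and between -0.0012 and 0.14 in 154Q-AXH mice. In the striatum its lowest libraries were WT-220 and 154Q-AXH-217, at 484.6 and 591.6 CPM against 767.4 to 913.7 CPM in the rest, and these were also lowest for *Basp1*, at 387.1 and 359.8 CPM against 538.7 to 825.1 CPM. *Basp1* differences outside the cerebellum lay between -0.08 and 0.03 in 154Q and between 0.01 and 0.13 in 154Q-AXH mice, with SE from 0.07 to 0.22. *Syp* shares 875 exon bases with an antisense gene (*Gm14703*), and the counts did not use strand, so reads in that stretch cannot be assigned to either gene.

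No member passed the test of 154Q-AXH against 154Q in any region, where the cerebellar values of *Synpr* and *Marcks* are left out because a small difference there chose these genes. In the remaining comparisons 3 had an unadjusted p under 0.05 in edgeR: *Basp1* in the cerebellum (-0.52 ± 0.20, adjusted p = 0.55), and *Synpr* (0.54 ± 0.17) and *Marcksl1* (0.36 ± 0.11) in the hippocampus (adjusted p = 0.42 for both), where DESeq2 called none of the 6 either. With number series as a covariate the *Basp1* difference was 0.23 ± 0.26 (adjusted p = 0.68), of the other sign, and those of *Synpr* and *Marcksl1* were 0.50 ± 0.31 and 0.48 ± 0.19 (adjusted p = 0.69 and 0.53). Without the hippocampal libraries of 154Q-76 and 154Q-AXH-218 the latter were 0.22 ± 0.09 and 0.21 ± 0.08 (adjusted p = 0.95 for both). The background of this comparison was 0% of genes called in the brainstem, hippocampus, striatum, and cortex, and 0.0335% in the cerebellum. In edgeR 1163 of 21754 genes had an unadjusted p under 0.05 in the brainstem and 2356 of 21454 in the hippocampus. In the striatum, cortex, and cerebellum these were 601 of 18408, 1241 of 18610, and 1586 of 20874. DESeq2 called 33, 45, 0, 0, and 122 genes in the brainstem, hippocampus, striatum, cortex, and cerebellum. The 3 unadjusted values above are therefore not read as results about the members. For *Marcks* the 154Q-AXH minus 154Q differences lay between -0.09 and 0.07 in the 4 regions outside the cerebellum, with SE of 0.04 to 0.11. A missed threshold does not show that the genotypes were alike.

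Whether the 154Q effect differed between regions was tested directly. Over brainstem, hippocampus, striatum, and cortex, none of the 6 members passed in edgeR (*Synpr* adjusted p = 0.14, *Marcksl1* 0.18, *Marcks* 0.33, *Gap43* 0.47, *Syp* 0.57, and *Basp1* 0.94, with 2.43% of genes called). With mouse as a block, *Marcksl1* passed (adjusted p = 0.028) and *Synpr* did not (0.077), and *Synpr* passed in the DESeq2 likelihood ratio test (0.048). *Synpr* and *Marcksl1* were the 2 with an unadjusted p under 0.05 in edgeR without the block. Over all 5 regions, *Basp1* passed (adjusted p = 0.015, with mouse as a block 0.0056, background 5.71%), and *Marcksl1* passed with the block (0.011) and not without it (0.062). The *Basp1* result contains the cerebellar libraries of 154Q-71 and 154Q-75, and it was lost when mouse 154Q-71 (adjusted p = 0.10), 154Q-75 (0.057), or WT-221 (0.12) was left out.

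Other tetraspan vesicle genes had 2 raised calls and no lowered call in 98 tests over the 10 comparisons with WT. In the cerebellum, where both fell, 5.22% of all genes were called in 154Q and 2.21% in 154Q-AXH mice. Of 11 other tetraspan vesicle genes, *Syngr3*, which encodes the vesicle protein synaptogyrin-3, was the only one called, raised in the cerebellum of 154Q (0.30 ± 0.04, adjusted p = 9.7e-04) and 154Q-AXH mice (0.19 ± 0.04, adjusted p = 0.045), and the list median lay between -0.01 and 0.06 over the 10 comparisons. Of 23 synaptic vesicle and active zone genes, 13 were lowered and 1 was raised in the 154Q cortex, with a list median of -0.22 against 0.01 for all genes, and 4 were lowered in the 154Q-AXH cortex (median -0.16). Calls over all genes of the cortex also leaned down, with 1248 lowered and 818 raised in 154Q (11.1% called) and 886 and 444 in 154Q-AXH mice (7.15%). *Cplx2*, a complexin that binds the SNARE complex, was lowered in the 154Q cerebellum (-0.21), striatum (-0.44), and cortex (-0.39) and in the 154Q-AXH cortex (-0.28). *Rims1* and *Bsn*, active zone scaffolds, and *Stx1a*, a plasma membrane SNARE, were lowered in the cortex of both genotypes.

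Protein kinase C and calmodulin genes, a list with kinases of MARCKS and GAP-43 and with other calmodulin-binding proteins, were mostly lowered where they passed the test. Among these 16 genes, 5 were lowered in each of the 154Q hippocampus and striatum and 7 in the 154Q cortex, and none was raised in these regions. In the same regions 0, 0, and 4 of them were lowered in 154Q-AXH mice. Over all genes 5.91%, 5.69%, and 11.1% were called in those regions of 154Q mice, with 727, 694, and 1248 lowered against 541, 353, and 818 raised, and 1.3%, 1.35%, and 7.15% were called in 154Q-AXH mice. *Prkcb*, a kinase that phosphorylates MARCKS and GAP-43, differed by -0.53 in the hippocampus and -0.44 in the striatum of 154Q mice, and by -0.45 and -0.35 in the 154Q and 154Q-AXH cortex, all called. *Nrgn*, which like *Gap43* encodes a calmodulin-binding kinase substrate, was lowered in the 154Q cortex (-0.38), the 154Q striatum (-0.61), and the 154Q-AXH cortex (-0.36). In the 154Q cerebellum it was called as raised (2.40 ± 0.64, adjusted p = 0.042) on the 2 libraries given above. *Ppp3ca*, a calcineurin subunit, and *Pcp4*, a small calmodulin regulator, were lowered in 3 comparisons each. Over the 10 comparisons this list had 22 lowered and 1 raised call, at medians from -0.34 to -0.001.

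The 12 phosphoinositide genes had 15 lowered and no raised calls over the 10 comparisons. In the cortex 3 were lowered in 154Q and 4 in 154Q-AXH mice, against 11.1% and 7.15% of all genes called, and in the 154Q hippocampus 3 were lowered, against 5.91%. Over all genes, lowered calls outnumbered raised ones in each of the 10 comparisons, and the list medians lay between -0.16 and 0.04. *Pip4k2c*, a lipid kinase, was lowered in the hippocampus (-0.54 and -0.46) and cortex (-0.28 and -0.23) of both genotypes, and *Plcb1*, a phospholipase that hydrolyzes the lipid bound by MARCKS, was lowered in the striatum (-0.34 and -0.39) and cortex (-0.36 and -0.38). *Pip5k1b*, a lipid kinase, and *Inpp5a*, an inositol phosphate phosphatase, were lowered in 3 and 2 comparisons. Of 9 genes for protein lipidation, *Nmt1*, the myristoyltransferase that modifies MARCKS and BASP1, was lowered once, in the 154Q hippocampus.

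Growth cone and axon growth genes had more raised than lowered calls, 18 against 6 over the 10 comparisons. Of 18 such genes, of which 17 were tested in each region but the brainstem, 5 were raised and 1 lowered in the 154Q cortex, 4 and 1 in the hippocampus, and 2 and 1 in both the striatum and the cerebellum, with none in the brainstem. The shares of all genes called in these regions of 154Q mice, in the same order, were 11.1%, 5.91%, 5.69%, 5.22%, and 0.538%. In 154Q-AXH mice 3 were raised in the cortex, and 1 was raised and 1 lowered in each of the striatum and the cerebellum. Of all genes, 7.15%, 1.35%, and 2.21% were called in the cortex, striatum, and cerebellum of 154Q-AXH mice. *Dpysl3*, a collapsin response mediator, was raised in the striatum (0.74), hippocampus (0.70), cortex (0.61), and cerebellum (0.40) of 154Q mice and in the striatum (0.54) and cortex (0.52) of 154Q-AXH mice. Its relative *Crmp1* was raised in the cerebellum and cortex of both genotypes, by 0.13 to 0.27. *Stmn2*, a regulator of axonal microtubules, was raised in the 154Q hippocampus (0.34) and the cortex of both genotypes (0.34 and 0.39). *Gpm6b*, a membrane proteolipid found in neurons and glia, was lowered in 5 comparisons. The list medians lay between -0.01 and 0.20, against -0.01 to 0.02 for all genes.

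Markers of other cells were examined over the same 10 comparisons, in which 0.0138% to 11.1% of all genes were called. The counts pool all 5 regions, whether or not a list marks its cell type there, so they do not count changes of cell types. The Purkinje cell list, for example, summed to 699.5 to 934.9 CPM in the WT cortex. GABA interneuron markers had 21 lowered calls of 88 tests, led by *Gad1*, *Sst*, and *Npy* with 4 each and *Vip* and *Lamp5* with 3 each. Their sum was 1402 to 1596 CPM in WT, 982.6 to 1152 CPM in 154Q, and 1073 to 1174 CPM in 154Q-AXH cortex. Both mutant groups lay below WT and overlapped each other. This moved with the cortical decrease of *Synpr* and *Marcksl1*, as did other lists, and the part of any cell type in that decrease was not tested. Astrocyte and Bergmann glia markers also lay below WT there, at 1001 to 1109 CPM in WT, 801.9 to 927.5 CPM in 154Q, and 792.0 to 989.9 CPM in 154Q-AXH mice. Oligodendrocyte and microglia markers overlapped WT in both mutant groups. Cortical excitatory markers summed to 1860 to 2105 CPM in WT, 1615 to 1754 CPM in 154Q, and 1623 to 1791 CPM in 154Q-AXH cortex. Dentate granule cell markers had 12 lowered calls of 60 tests, of which 8 were *Plk5*, and 1 raised (*Tdo2* in the 154Q-AXH cortex). Striatal projection neuron markers had 5 lowered calls of 60 tests (*Penk* in 3 and *Ppp1r1b* in 2). Purkinje cell markers had 7 of 48 (*Calb1*, *Car8*, and *Itpr1* with 2 each and *Ppp1r17* with 1). Astrocyte and Bergmann glia markers had 5 of 50, with *Gdf10* in 2. Claustrum markers had 3 lowered calls of 50 tests (*Ntng2* and *Oprk1*), and cerebellar granule cell markers 2 of 58 (*Neurod1* and *Cbln1*). Cortical excitatory markers had 3 lowered and 1 raised of 56, and endothelial and mural markers 1 lowered of 50 (*Cldn5*). Unipolar brush and Golgi cell markers had 5 lowered and 2 raised of 44, the latter *Calb2* in the cerebellum of both genotypes. Brainstem markers had 3 raised calls outside the brainstem, of *Hoxa2* and *Hoxc4* in the 154Q hippocampus, which holds library 154Q-76, and of *Hoxc4* in the 154Q striatum, and 1 lowered call, of *Tph2* in the 154Q brainstem. None was called among oligodendrocyte, microglia, or choroid plexus markers.

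Across all 59 libraries, the level of *Synpr* was most like that of *Cplx2* (Pearson r = 0.91), *Nedd4l* (0.90), *Tmem68* (0.90), *Sowaha* (0.90), and *Camk2b* (0.89), among 24290 genes. The libraries share mice and regions, so these values describe mainly the regional profile. With the WT mean of the region subtracted from each library, the nearest were *Kcnk2* (0.87), *Stk32c* (0.83), *Flrt3* (0.81), *9930014A18Rik* (0.79), and *Me3* (0.79), and *Synpr* itself had r = 0.27 with *Marcks* and -0.09 with *Syp*. These values also used all 59 libraries, among them the cerebellar ones that chose *Synpr* and *Marcks*. They are given as a description with no test, and the part of the cerebellar libraries in them was not tested.

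*Marcks* levels were close to those of *Lca5* (r = 0.89), *Fam117b* (0.87), *Zfp704* (0.87), and *Myef2* (0.87). After subtraction of the regional WT mean near genes were *Srsf12* (0.77), *Pik3cd* (0.77), *Nyap1* (0.77), and *Rsrp1* (0.75). On that scale *Marcks* had r = 0.52 with *Gap43*, 0.46 with *Basp1*, 0.28 with *Syp*, and -0.27 with *Marcksl1*. The values after subtraction include the cerebellar libraries, whose *Marcks* values chose the gene, and are likewise a description with no test. *Basp1* was called against WT only in the cerebellum, and how far its r with *Marcks* rests on those libraries was not tested.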

How the data were processed

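PolyA RNA from 59 mouse brain libraries was sequenced as paired-end reads. Per the paper's methods and the labels, trimming by the authors used Trimmomatic 0.36 and alignment to GRCm38.p6 used STAR 2.7.2d. Their gene tests, not used here, were run with DESeq2, for which the submitters' processing notes list 1.28.1 and the methods name another version. The deposited files hold counts of read pairs per gene, not normalized, and the column used here ignores strand. The deposited values cover 54232 mouse genes, and 4 summary lines and 1 human transgene line (at most 53 counts) were left out of totals. The members and gene lists were chosen with earlier results of these data known, and no list or test is independent of them.

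Counts were fitted within each region with edgeR 4.0.16 in R 4.3.3 (TMM scaling, filterByExpr, quasi-likelihood F test, genotype as the only factor, all 3 genotypes in the fit), and p-values were adjusted by Benjamini-Hochberg over all genes of the region, with a threshold of 0.05. CPM are relative to TMM-scaled library sizes within a region, and the printed WT levels, fold ranges, and overlaps between regions use this scaling. The WT libraries were scaled together for the F test over regions and to check the order of regions. Each library is 1 mouse, so the replicates are mice. Log2 values for ratios used a prior count of 2. Differences between regions came from the genotype by region interaction. Mice with the same number in different regions were taken as the same animal from their sample titles, which is why mouse served as a block in 1 alternative. Deviations from group means correlated weakly between regions of the same mouse (median r = 0.019, from -0.22 to 0.325, 28 of 116 pairs above 0.1), against a median of -0.003 over 348 pairs of different mice. Total counts of 28058359 to 112343574 read pairs per library set the counting error, and the fits were tested on simulated data.

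Genes named in the text are the 6 members and, from each list, up to 4 genes with the most calls against WT, and other names were given where a count was small or a marker stood apart. The nearest genes by pattern are the 5 with the highest Pearson r, of which some are not reported here. Exon lengths and positions came from GENCODE M21 and promoter windows from RefSeq. DESeq2 1.42.0, DESeq2 size factors, no filter on low counts, 2 genotypes only, number series as a covariate or within series, *Xist* and *Ttr* covariates, the 2 cortical libraries exchanged or left out, each library left out, and, chosen after seeing the data, groups of 1 or 2 libraries left out were tried as alternatives.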

Additional observations from a re-analysis of the deposited data

Results flagged for a closer look

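Single libraries stood far from the other 3 of their group in 3 of 84 groups of members examined, where chance gives about 1 in 20. *Gap43* in the cerebellum of 154Q-AXH-217 was 191.3 CPM against 177.4 to 178.3 CPM in the other 154Q-AXH mice. *Marcks* in the striatum of 154Q-76 was 129.0 CPM against 164.6 to 167.0 CPM in the other 154Q mice. *Syp* in the striatum of WT-220 was 484.6 CPM against 767.4 to 809.7 CPM in the other WT mice, in a library with high striatal projection neuron and low cortical markers, whose part in the value was not tested.

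The 154Q effect on *Basp1* differed between the 5 regions in the edgeR interaction test (adjusted p = 0.0149), with log2 differences of 0.92 in the cerebellum and between -0.08 and 0.03 in the other regions. All 4 cerebellar 154Q libraries were above the 4 WT libraries. *Basp1* was at its lowest level of the 5 regions in the cerebellum, and the 2 highest cerebellar libraries were those with *Nrgn* at 29.2 and 32.6 CPM.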

How the results depend on the processing

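No called member difference reversed direction under an alternative. Of the single member values, 735 stayed the same under other settings, 20 lost a call, 23 gained 1, and 2 moved. With 1 library left out these numbers were 1029, 23, 10, and 0. Same means the same side of the threshold, except for *Synpr* and *Marcks* in the cerebellum. Those chosen values are included, and count as the same if they shifted by less than 1 SD and otherwise as moved. Counts below are of members called, with *Synpr* and *Marcks* left out in the cerebellum. Settings also differ in how many of all genes they call, and those shares are not given here. For 154Q-AXH against 154Q in the cerebellum, for example, DESeq2 called 122 genes and edgeR 7. Shifts in the counts are therefore not read as results about the members. For 154Q against WT, the cerebellar count of 2 became 1 with only 2 genotypes, with number series as a covariate, within number series, and without the libraries of 154Q-71 and 154Q-75, became 3 in DESeq2 and with *Xist* as a covariate, and was 1 to 3 with single libraries left out. For 154Q-AXH against WT, the cerebellar count of 1 became 2 with the covariate and 3 within series. Both brainstem counts of 0 became 1 in DESeq2. The hippocampal 154Q count of 1 became 2 in DESeq2 and with only 2 genotypes, 0 with the covariate and within series, and 3 without 154Q-76 and 154Q-AXH-218, and was 1 to 3 with single libraries left out, where the 154Q-AXH count of 1 was 0 to 1.

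The striatal 154Q count of 1 became 0 with only 2 genotypes, with number series, *Xist*, or *Ttr* as a covariate, and within series, and 2 without WT-220 and 154Q-AXH-217. The striatal 154Q-AXH count of 0 became 1 in DESeq2 and 2 without that pair, and both counts were 0 to 1 with single libraries left out. The cortical 154Q count of 4 became 2 with the covariate and 1 within series, and was 2 to 4 with single libraries left out. The cortical 154Q-AXH count of 2 became 4 in DESeq2, without a filter, and with only 2 genotypes, and 1 with the covariate, and was 1 to 4 with single libraries left out. The cause of these changes was not tested, and the fits that left out libraries or a genotype also had fewer libraries.

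With mouse as a block, the pairing raised the count of members whose 154Q effect differed over 4 regions from 0 to 1 and over 5 regions, for the 4 relatives, from 1 to 2, as did the DESeq2 likelihood ratio test (1 and 2), and both counts were 0 to 1 with single mice left out. The block changed no other call. Each member had at least 1073 counts in every library, and 4 mice a group leave ratio tests unable to pass a p below 0.0286.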
